A study of Mus musculus with 30 samples.

Results

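Lymphoma cells that had been selected for growth in mafosfamide were measured before the drug and after 24 h in 750 nM of it, and the change in each of 3 resistant lines is described here. The members are 6 of the 30 arrays of the series. They are the untreated and treated arrays of the lines R500, R1000 and R4000, taken by their labels and paired by line, with 1 array per line and condition. All cells in the series came from a single C57BL/6J lymphoma culture that carries the Eμ-Myc transgene and lacks Cdkn2a (Cdkn2a-/-), so the untreated controls share both alterations. The resistant lines are successive steps of a mafosfamide escalation of that culture, with the step in nM as the number in each name, and each line gave 1 pair. Cells grew on a feeder layer of irradiated Cdkn2a-/- mouse fibroblasts. The untreated arrays carry 0 for both dose and time, so the effect of the drug and of 24 h in culture cannot be told apart. Parental cells, with 5 arrays at 0 h and 5 after 24 h in 750 nM mafosfamide, serve as the comparison.

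Mafosfamide is an analogue of cyclophosphamide that turns into the active metabolite without the liver. That metabolite is either oxidised by aldehyde dehydrogenases or breaks down to a mustard that crosslinks DNA. Crosslinks activate checkpoint kinases and p53, which induces genes of cell cycle arrest, apoptosis and repair as well as its own inhibitor Mdm2. Cdkn2a encodes p16Ink4a and p19Arf, and p19Arf protects p53 from Mdm2, so its loss removes the link from Myc to p53 but not the link from DNA damage to p53. In Eμ-Myc mice the immunoglobulin heavy chain enhancer drives Myc in the B lineage, and the tumours are of pre-B or immature B cells.

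The genes whose changes are described most closely fall into a few groups, and promoters of 6 of them were read to show which textbook motifs lie just before their starts. The first 3 belong to immediate early genes whose intensity was lower after treatment, Fcgr4 is an Fc receptor gene that was higher, and Ccng1 belongs to the p53 targets and Hmgcs1 to sterol synthesis. The stretches are the 250 bases before the RefSeq start on GRCm38.p6, written 5′ to 3′ on the strand of the gene, at chr12:85473640-85473889 (plus strand) for Fos, chr7:19310046-19310295 (minus) for Fosb, chr17:26508473-26508722 (minus) for Dusp1, chr1:171018676-171018925 (plus) for Fcgr4, chr11:40755287-40755536 (minus) for Ccng1 and chr13:119690101-119690350 (plus) for Hmgcs1. Capitals mark the cAMP response half-site TGACG in the first 3, the PU.1 motif GAGGAAGT read on the other strand in Fcgr4, a p53 half-site in Ccng1 and the CCAAT box read on the other strand in Hmgcs1.
Fos: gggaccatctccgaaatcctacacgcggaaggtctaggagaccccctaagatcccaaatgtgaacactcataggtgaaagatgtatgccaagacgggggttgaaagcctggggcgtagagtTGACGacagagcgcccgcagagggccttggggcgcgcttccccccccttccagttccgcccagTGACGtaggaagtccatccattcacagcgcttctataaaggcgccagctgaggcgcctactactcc
Fosb: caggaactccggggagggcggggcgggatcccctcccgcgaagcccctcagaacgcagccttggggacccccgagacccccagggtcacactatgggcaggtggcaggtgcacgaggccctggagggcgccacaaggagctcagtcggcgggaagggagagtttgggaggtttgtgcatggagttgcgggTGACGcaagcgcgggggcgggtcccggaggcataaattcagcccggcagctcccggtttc
Dusp1: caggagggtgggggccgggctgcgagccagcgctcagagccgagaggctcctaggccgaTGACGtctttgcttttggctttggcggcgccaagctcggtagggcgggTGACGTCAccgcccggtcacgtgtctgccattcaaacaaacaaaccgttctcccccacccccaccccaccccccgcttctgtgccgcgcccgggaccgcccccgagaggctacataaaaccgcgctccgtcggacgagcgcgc
Fcgr4: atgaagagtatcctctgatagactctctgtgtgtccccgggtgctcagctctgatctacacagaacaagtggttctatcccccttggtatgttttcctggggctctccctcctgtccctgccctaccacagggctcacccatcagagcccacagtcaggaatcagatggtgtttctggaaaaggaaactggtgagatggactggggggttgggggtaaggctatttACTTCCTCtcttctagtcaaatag
Ccng1: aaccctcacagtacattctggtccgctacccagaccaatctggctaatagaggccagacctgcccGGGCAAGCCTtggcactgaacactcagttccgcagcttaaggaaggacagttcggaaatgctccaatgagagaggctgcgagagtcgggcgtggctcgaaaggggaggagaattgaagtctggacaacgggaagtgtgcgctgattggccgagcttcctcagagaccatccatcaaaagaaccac
Hmgcs1: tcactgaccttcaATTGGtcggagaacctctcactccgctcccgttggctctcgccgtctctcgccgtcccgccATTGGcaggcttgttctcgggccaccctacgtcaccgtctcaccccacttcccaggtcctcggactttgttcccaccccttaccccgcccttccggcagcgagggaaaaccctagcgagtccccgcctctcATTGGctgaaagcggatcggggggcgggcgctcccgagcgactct
The half-sites began 129 and 66 bases before the start of Fos and 60 before that of Fosb. In Dusp1 they began 191, 143 and 140 bases before it, and the last pair overlap on opposite strands as the full palindrome TGACGTCA. Among all 27025 genes with such a window, 19.8% held TGACG on either strand, 2.79% GAGGAAGT, 37.5% CCAAT and 8.2% the p53 half-site. These matches describe the letters of the windows and do not show binding.

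Measurements were RMA intensities on the log2 scale, in which a step of 1 is a doubling. The 6 array medians lay between 7.29 and 7.305. B-lineage genes were bright in every array, with Cd79a (a signalling chain of the B-cell receptor) at 13.28 to 13.40 and Pax5, the B-lineage commitment factor, at 11.77 to 11.96. Myc stood at 13.10, 13.19 and 13.16 in untreated R500, R1000 and R4000 and at 13.18, 13.16 and 13.30 after treatment, a mean difference of 0.06 (adjusted p = 0.766). The probe set of the deleted Cdkn2a read 7.12 to 7.62, and with no wild-type array on hand that value checks no label. The R4000 pair stood apart from the others. Arrays were compared over the 500 genes that varied most among the untreated lines. Each value was first set against the gene's mean over untreated R100, R500, R1000 and R4000. On these deviations, R1000 treated correlated best with its own untreated array (r = 0.321). R500 treated correlated at 0.109 with its own and at 0.358 with R1000 untreated. R4000 treated correlated at -0.426 with its own untreated array and at 0.531 with the untreated array of R100, the earliest step of the escalation, for which no treated array was analysed. A negative r here means opposite departures from that mean, not opposite intensities. These are correlations across genes in arrays that share their processing, and they carry no test.

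Some single genes showed the same mismatch. Bcl2l1, which encodes the survival protein BCL-XL, read 7.58, 7.61 and 7.55 in untreated R500, R1000 and R4000, 7.65, 7.51 and 10.43 after treatment, and 9.41 in untreated R100. Ms4a1, the gene of CD20, read 10.14, 9.49 and 10.49 before and 10.76, 10.03 and 8.19 after, against 7.71 in R100. For both genes R4000 alone moved by more than 2-fold, and its treated level was on the side of R100. The labels were used as given, and whether an array was exchanged cannot be told from these files. If 1 was, every R4000 change given here would compare other cells than its label says, so calls are also given without R4000.

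**Figure D1:**
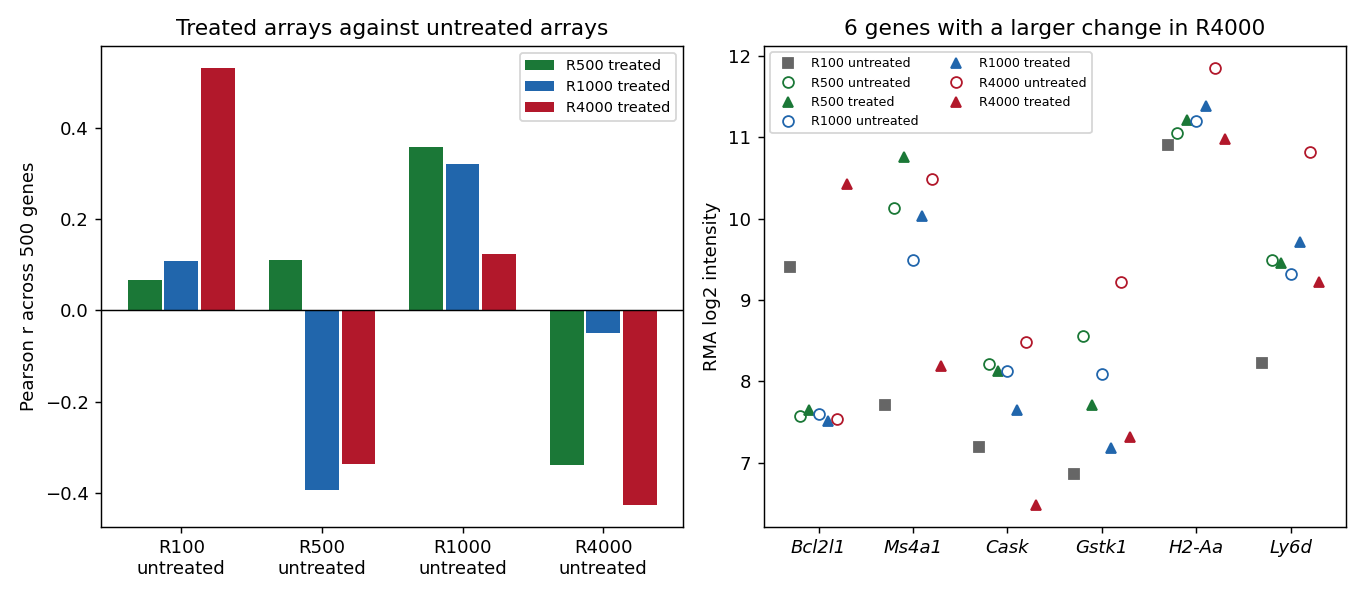
Left, Pearson correlation (no unit) of each treated array with each untreated array over the 500 genes that varied most among untreated lines. For these correlations each value was set against the gene's mean over untreated R100, R500, R1000 and R4000. Right, RMA intensity (log2) of 6 genes in the untreated and treated arrays of each line and in untreated R100. The R4000 treated array correlated at 0.531 with untreated R100 and at -0.426 with its own untreated array, and its Bcl2l1 level of 10.43 lay nearer to the 9.41 of R100 than to any other untreated array.

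Across 19937 genes, 76 passed a Benjamini-Hochberg adjusted p of 0.05 in a limma fit of treatment with line as a block. Of these 58 were higher after mafosfamide (0.291% of the genes tested) and 18 were lower (0.0903%). All 76 moved the same way in all 3 lines, where 14.5% of all genes were higher in every line and 21.5% lower. A paired fit of 3 lines favours genes with this agreement. In 51 of the 58 rises all treated arrays lay above all untreated ones, an arrangement found in 6.92% of all genes, and in all 18 falls they lay below, found in 11.4% of all genes. The changes were mostly modest, with 16 rises and 2 falls of at least 2-fold, and the median change of all genes was -0.02. By size alone, 34 genes were at least 1.5-fold higher in every line (0.171%), of which 31 passed the test, and 7 were at least 1.5-fold lower (0.0351%), of which 5 passed. With 2 residual degrees of freedom the number of calls moved strongly when a line was left out. It was 0 without R500, where the smallest adjusted p was 0.0634 and 1520 genes had an unadjusted p under 0.05, 598 without R1000 and 28 without R4000. Of the 76, 19 passed without R4000, namely Rnase12, Zmat3, Csf2rb, Bfsp2, Ncf1, Abhd6, Sh2d2a, Fcgr4, Cfp, Lta, Ifi208, Timd2, Mpeg1, Cr2, Serpinf1, Mrc1, St14, Car13 and Fosb. Of these, Rnase12, Csf2rb, Cfp, Lta, Ifi208, Cr2, Serpinf1, Mrc1, St14 and Car13 did not pass once R100 joined the untreated group without a block. All 76 genes kept their sign in R500 and R1000, and 42 of them were at least 1.5-fold changed in both. These 2 pairs helped to choose the 76, so this agreement is a description and no separate check.

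The targets of p53 showed a short list of rises. Of 41 measured genes, 4 rose and none fell, beside 0.291% and 0.0903% of all genes. In all 3 lines 18 were higher and 7 lower, beside 14.5% and 21.5% of all genes. The median change of the list was 0.09. At an unadjusted p under 0.05, 10 were higher and 5 lower, beside 5.14% and 7.99% of all genes. Zmat3, whose zinc finger protein binds RNA and is under p53 control, read 7.76, 7.62 and 7.72 in untreated R500, R1000 and R4000 and 9.02, 8.92 and 9.54 after treatment. The groups were widely separated, and the rise was 2.75-fold (log2 change 1.46 ± 0.12 SE, n = 3 pairs, limma adjusted p = 0.00677). It also passed without R4000. Ccng1, the gene of cyclin G1 and part of the Mdm2 feedback loop, was bright throughout, at 12.47, 12.37 and 12.44 before and 12.89, 12.84 and 13.00 after. Its rise of 1.4-fold was at the edge of the threshold (adjusted p = 0.0496) and did not pass without R4000 (adjusted p = 0.189). The p53 half-site printed above lies 185 bases before its start. Of the 33 list members with a window, 9 (27.3%) held that motif, beside 8.2% of all genes. Ccng1 was the only one of the 4 risers among those 9. The share was not particular to this list. The motif was also held by 4 of 16 myeloid markers (25%) and 3 of 12 sterol synthesis genes (25%) with a window.

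Psrc1, a microtubule-binding protein, read 8.85, 8.70 and 9.16 before and 9.43, 9.35 and 9.70 after treatment, a 1.5-fold rise with no overlap (adjusted p = 0.0247). Phlda3, a p53-induced inhibitor of Akt, read 7.91, 7.83 and 8.17 before and 8.37, 8.48 and 8.97 after, a 1.55-fold rise with no overlap (adjusted p = 0.0364). Neither passed without R4000, at adjusted p = 0.112 for Psrc1 and 0.145 for Phlda3. By role, the genes that rose were 1 of 6 feedback regulators, 1 of 7 arrest genes, 1 of 11 apoptosis genes, 0 of 7 repair genes and 1 of 10 metabolism and stress genes. Mdm2, the main inhibitor of p53, read 10.51, 10.53 and 10.77 before and 10.26, 10.48 and 10.07 after, lower in every line but without passing (change -0.33, adjusted p = 0.312). The BH3-only genes Bbc3 (PUMA) and Pmaip1 (NOXA) changed by 0.20 and 0.24 (adjusted p = 0.259 and 0.288), the death receptor gene Fas by 0.03 and the antiproliferative gene Btg2 by 0.12. Dglucy, a mitochondrial D-glutamate cyclase outside the list, read 6.74, 6.46 and 6.66 before and 7.71, 7.41 and 8.77 after. Its groups were separate, but the change of 1.34 varied between lines and did not pass (adjusted p = 0.0665). Ephx1 and Trp53inp1, picked out after their values were seen, changed by 0.69 and 0.67 (adjusted p = 0.0765 and 0.0954).

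**Figure D2:**
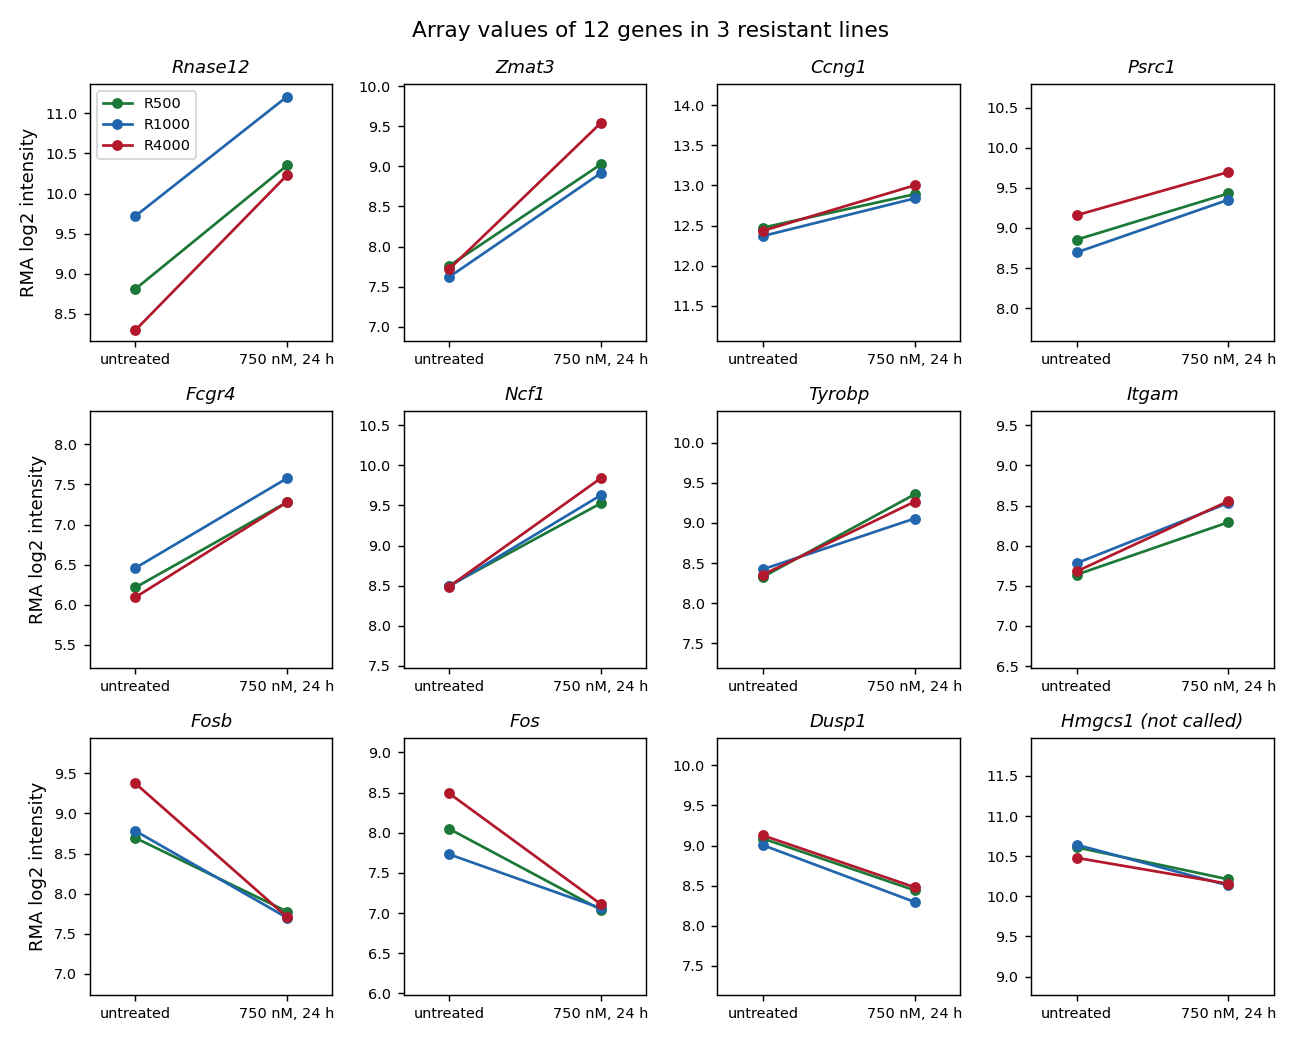
RMA intensity (log2) of 12 genes in untreated cells and after 24 h in 750 nM mafosfamide, with 1 line drawn for each of R500, R1000 and R4000. The lines rise together for Rnase12, Zmat3, Fcgr4 and Ncf1 and fall together for Fosb, Fos and Dusp1, while Hmgcs1, whose adjusted p was 0.0791, was also lower in every line.

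The largest rise belonged to Rnase12, a member of the RNase A family. It read 8.81, 9.72 and 8.30 before and 10.35, 11.21 and 10.23 after treatment. All treated arrays lay above all untreated ones, and the rise was 3.14-fold (log2 change 1.65 ± 0.10 SE, n = 3 pairs, adjusted p = 0.0037). Untreated R100 already read 10.44, inside the treated range, and with that array added to the untreated group and no block the adjusted p was 0.26. Bfsp2, which encodes the beaded filament protein phakinin, read 9.40, 9.93 and 9.43 before and 10.68, 11.14 and 10.75 after, a 2.41-fold rise (adjusted p = 0.0037). Abhd6, a monoacylglycerol lipase, rose by 1.15 and Sh2d2a, the adaptor TSAd, by 1.13 on the log2 scale, each with separate groups. Cd80, the costimulatory ligand of CD28 and CTLA-4, read 7.48, 7.24 and 7.49 before and 8.31, 8.42 and 8.996 after. It rose 2.26-fold with no overlap (adjusted p = 0.0185), and it did not pass without R4000 (adjusted p = 0.0789).

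Genes of Fc receptors, their adaptor and the phagocyte oxidase were among the rises, and they were grouped after their values were seen. Fcgr4, an activating receptor for IgG, was dim at 6.22, 6.46 and 6.09 before treatment and read 7.28, 7.58 and 7.28 after. The treated arrays were all above the untreated ones, and the rise was 2.18-fold (log2 change 1.12 ± 0.07 SE, n = 3 pairs, adjusted p = 0.0037). The PU.1 motif of its printed window begins 24 bases before the start. Of the 45 rises with a window, Fcgr4 alone held it (2.22%), beside 2.79% of all genes. Of 16 myeloid markers with a window, called or not, 4 (25%) held it. Ncf1, the p47phox subunit of the phagocyte oxidase, stood at 8.50, 8.49 and 8.49 before and at 9.53, 9.63 and 9.84 after. The untreated lines were nearly equal, and the rise was 2.25-fold (adjusted p = 0.00409). Cybb, the catalytic subunit of that oxidase and picked out after its values were seen, was already bright and rose from 11.41, 11.47 and 11.27 to 12.12, 12.23 and 11.96 (adjusted p = 0.0121, and 0.0759 without R4000). Both oxidase genes were higher in every line, and their groups did not overlap.

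Csf2rb, the shared chain of the receptors for GM-CSF, interleukin 3 and interleukin 5, read 7.93, 7.92 and 7.66 before and 9.73, 9.39 and 8.44 after. Its rise of 2.55-fold was smallest in R4000 and passed with all lines (adjusted p = 0.036) and without R4000. Of the 20 myeloid markers measured, 4 rose and none fell, beside 0.291% of all genes that rose. In all 3 lines 8 were higher and 0 lower, beside 14.5% and 21.5% of all genes, and the list median was 0.03. Tyrobp, the adaptor DAP12, read 8.33, 8.42 and 8.36 before and 9.36, 9.05 and 9.26 after, a 1.81-fold rise (adjusted p = 0.019). Itgam, the CD11b integrin chain, read 7.64, 7.78 and 7.68 before and 8.29, 8.53 and 8.55 after, a 1.69-fold rise (adjusted p = 0.016). Both sets were separate. Mrc1, the mannose receptor, read 8.01, 8.83 and 7.91 before and 8.93, 9.69 and 8.65 after, so R1000 untreated overlapped the treated arrays although each line rose (adjusted p = 0.00821). Fcgr3, another activating IgG receptor, rose 1.56-fold (adjusted p = 0.0317). Without R4000, Mrc1 passed and Tyrobp, Itgam and Fcgr3 did not, at adjusted p = 0.121, 0.0862 and 0.127.

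Some markers of this list were dim in all 6 arrays and others were not. Lyz2, the macrophage lysozyme, read 5.65 to 6.25, Adgre1, a macrophage surface receptor, 5.50 to 5.66, the endotoxin coreceptor gene Cd14 5.83 to 6.24 and the granulocyte gene S100a8 5.09 to 5.29, all below the array medians. Above the medians lay Mrc1, Itgam, Tyrobp and Fcgr3, which rose, and Cd68 and Cebpb, with untreated means of 9.13 and 8.24 and changes that did not pass. The mean of the 20 markers was 6.91, 7.04 and 6.86 in untreated R500, R1000 and R4000 and 7.08, 7.15 and 7.12 after treatment. The part of other cells in these rises was not tested. Spi1, the gene of PU.1 that B cells also express, read 11.64 to 11.88. In a mixed culture a larger share of a cell type and more RNA per cell cannot be told apart.

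The other rises among the 15 largest were Cfp, Timd2, Cd244a, Ms4a4c, Lta and Ifi208. Cfp, the complement regulator properdin, rose by 1.10, Timd2, a receptor for ferritin, by 1.06, Cd244a, a receptor of the SLAM family, by 1.06 and Ms4a4c by 1.05 on the log2 scale, all with separate groups. Without R4000, Cfp and Timd2 passed and Cd244a and Ms4a4c did not, at adjusted p = 0.0638 and 0.112. Lta, which encodes the cytokine lymphotoxin alpha, and Ifi208, an interferon-inducible gene, each rose by 1.09, and in both R1000 untreated lay above the treated arrays of R500 or R4000. Cr2, the complement receptor CD21 of mature B cells, read 6.64, 7.29 and 6.48 before and 7.66, 8.59 and 7.15 after. It rose 2-fold in the mean (adjusted p = 0.0271), with overlap because R1000 started highest, and it was the only riser among 16 markers of mature B cells.

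Further calls outside the naming rule were chosen after their values were seen. Mpeg1, the gene of perforin-2, rose by 1.04 (adjusted p = 0.00409) and Fcmr, the receptor for IgM, by 0.95 (adjusted p = 0.0234). Gimap4 and Gimap6, GTPases of lymphocyte survival, rose by 0.99 and 0.58 (adjusted p = 0.0118 and 0.0283). Nlrp3, the inflammasome sensor, rose by 0.69 (adjusted p = 0.0161). H2-Eb2, an MHC class II beta chain gene, was the most even of these at 10.03, 10.05 and 10.07 before and 10.70 in all 3 treated arrays (change 0.65, adjusted p = 0.0161). Without R4000, Mpeg1 passed, and the adjusted p was 0.0735 for Fcmr, 0.0845 for Gimap4, 0.134 for Gimap6, 0.107 for Nlrp3 and 0.091 for H2-Eb2. The 9 measured MHC class II genes as a list did not move together, with medians of 0.11 in R500, 0.20 in R1000 and -0.40 in R4000.

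**Figure D3:**
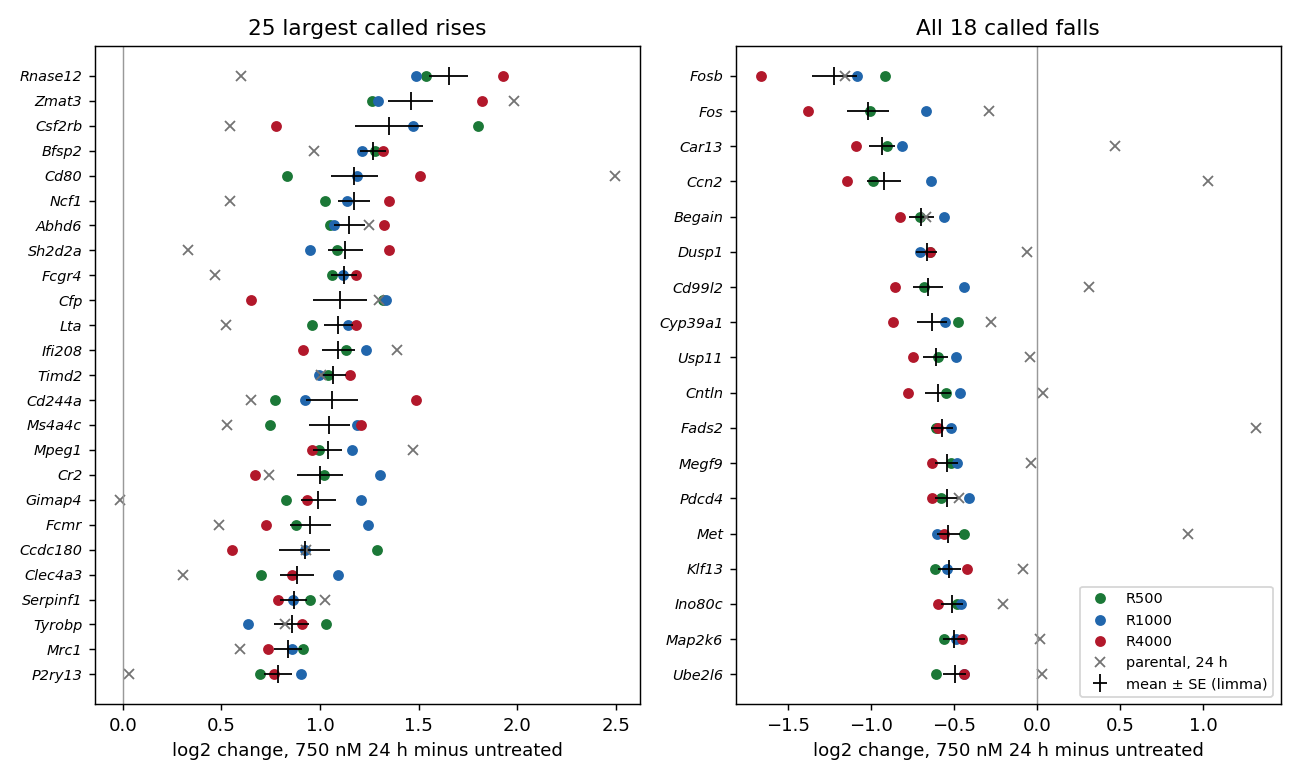
Change in RMA intensity (log2, treated minus untreated) of the 25 largest rises and all 18 falls that passed the limma test. Dots are the lines R500, R1000 and R4000, bars are the mean and its limma standard error, and crosses are the 24 h change in parental cells. Rises reached 1.65 for Rnase12 and falls -1.22 for Fosb, and the crosses of Car13, Ccn2, Fads2 and Met lie on the other side of 0 from the resistant lines.

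The largest falls, those of Fosb and Fos, were of immediate early genes, which cells switch on within minutes of a growth or stress signal. Fosb, an AP-1 subunit, read 8.69, 8.78 and 9.37 before and 7.78, 7.70 and 7.71 after treatment. The treated arrays were nearly equal and all below the untreated ones, a 2.33-fold fall (log2 change -1.22 ± 0.14 SE, n = 3 pairs, adjusted p = 0.0247). It also passed without R4000. Fos, its paralogue, read 8.05, 7.73 and 8.49 before and 7.04, 7.06 and 7.11 after, a 2.03-fold fall with the same narrow treated range (adjusted p = 0.0317). Without R4000 its change was -0.84 (adjusted p = 0.112). Dusp1, a phosphatase that switches off MAP kinases, read 9.09, 9.01 and 9.13 before and 8.44, 8.30 and 8.48 after. Its groups were separate and its fall was 1.59-fold (adjusted p = 0.0161), with an adjusted p of 0.0878 without R4000.

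Of 20 immediate early genes, these 3 fell and none rose, beside 0.0903% and 0.291% of all genes. The median was -0.13. None of 10 quiescence genes passed. Among those that did not pass, Klf6, a zinc finger factor, changed by -0.61 (adjusted p = 0.0549), Jun, the partner of Fos in AP-1, by -0.46 (adjusted p = 0.14) and the immediate early gene Ier5 by 0.43 (adjusted p = 0.078). Of the 14 falls with a promoter window, 5 (35.7%) held TGACG, namely Dusp1, Fos, Fosb, Klf13 and Usp11, beside 5 of 45 rises (11.1%). Across the 27 members of the combined immediate early and quiescence list with a window, called or not, 15 (55.6%) held it. The share over all genes with a window was 19.8%. It was 33.3% among the p53 targets and 50% among the sterol synthesis genes, so the motif was not particular to the falls.

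The other falls were of genes with varied roles. Car13, a cytosolic carbonic anhydrase, read 7.71, 7.53 and 7.99 before and 6.80, 6.72 and 6.91 after. The groups were far apart, and the fall was 1.91-fold (adjusted p = 0.00821), also passing without R4000. Ccn2, the matricellular connective tissue growth factor, read 10.25, 9.84 and 10.06 before and 9.26, 9.21 and 8.91 after, a 1.9-fold fall with no overlap (adjusted p = 0.0247, and 0.116 without R4000). Begain, a synaptic scaffold partner, fell by 0.70, Cd99l2, an adhesion molecule, by 0.66, Fads2, the delta-6 fatty acid desaturase, by 0.57, Pdcd4, a translation inhibitor, by 0.54 and Met, the receptor of hepatocyte growth factor, by 0.53 on the log2 scale. In each the treated arrays lay below the untreated ones, and none passed without R4000, at adjusted p = 0.116 for Begain, 0.162 for Cd99l2, 0.122 for Fads2, 0.18 for Pdcd4 and 0.157 for Met. Gstk1, a mitochondrial glutathione transferase, showed a larger change of -1.21 from 8.55, 8.09 and 9.22 to 7.71, 7.18 and 7.32, but it differed between lines and did not pass (adjusted p = 0.0665).

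Ccn2 is also a fibroblast gene, and fibroblast transcripts moved with these falls. The mean of 28 fibroblast markers read 8.61, 8.46 and 8.66 in untreated R500, R1000 and R4000 and 8.39, 8.35 and 8.07 after treatment. It was lower in every line, most in R4000. Of the 28, 1 fell (Ccn2), and 17 were lower and 0 higher in all 3 lines, beside 21.5% and 14.5% of all genes. The median change was -0.18. Fn1, the gene of fibronectin, changed by -0.76 and Thbs1, that of thrombospondin 1, by -0.79 (adjusted p = 0.0997 and 0.132). With the fibroblast mean as a covariate, which leaves 1 residual degree of freedom, 39 genes were higher and 6 lower past the threshold, 20 of them among the 76. Under that fit the change was -0.64 for Ccn2 and -0.78 for Fosb, and neither passed (adjusted p = 0.163 and 0.111). Ccn2 is itself part of the fibroblast mean, so its own adjustment is partly built in.

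Sterol synthesis genes were mostly lower, but no single gene passed. Of 18 measured, 13 were lower and 1 higher in all 3 lines, beside 21.5% and 14.5% of all genes, and the median change was -0.18. At an unadjusted p under 0.05, 10 were lower and 0 higher, beside 7.99% and 5.14% of all genes. Hmgcs1, the synthase before HMG-CoA reductase, read 10.61, 10.64 and 10.48 before and 10.21, 10.13 and 10.16 after. The treated arrays were all lower, with a change of -0.41 (adjusted p = 0.0791). Insig1, the sterol-regulated brake on the pathway, read 11.36, 11.49 and 11.31 before and 10.75, 10.85 and 11.07 after (change -0.49, adjusted p = 0.0954). Fdft1, squalene synthase, changed by -0.44 and Idi1 by -0.34. All 12 members with a promoter window held a CCAAT box, found in 37.5% of all genes and in 60.6% of the p53 targets. Hmgcs1 alone held the sterol regulatory element TCACNCCAC, found in 1.22% of all genes.

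Genes that handle the drug or its damage gave no calls. None of 19 aldehyde dehydrogenases passed, with Aldh1a1 at -0.04 and Aldh3a1 at 0.01, the enzymes that oxidise the active metabolite. Among 15 efflux transporters, Abcb1b, a P-glycoprotein gene, read 7.40, 7.84 and 7.38 before and 7.93, 8.08 and 8.16 after, higher in each line without passing (change 0.52, adjusted p = 0.114). The other P-glycoprotein gene Abcb1a changed by -0.07, and Mgmt, which removes alkyl groups from guanine, by -0.14. None of 23 crosslink repair genes, 26 excision repair genes or 15 checkpoint genes passed. Of 32 glutathione and NRF2 genes none passed. At an unadjusted p under 0.05, 1 was higher and 8 were lower, beside 5.14% and 7.99% of all genes. The list as a whole did not fall. In all 3 lines 10 were higher and 9 lower, beside 14.5% and 21.5% of all genes, and the median change was -0.008. Its 11 oxidant response genes had a median of 0.076, with 5 higher and 1 lower in all 3 lines. Nqo1, a quinone reductase and standard NRF2 target, read 6.51, 6.16 and 6.66 before and 6.14, 6.19 and 5.90 after (change -0.36, adjusted p = 0.324), and Hmox1, heme oxygenase 1, changed by 0.16 (adjusted p = 0.602).

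The remaining lists held 0 calls. They were the BCL2 family (15 genes, median -0.03), death receptors (19), heat shock (10), the ATF4 and unfolded protein response (24), G1/S and replication (36), G2/M and mitosis (32), Myc and ribosome biogenesis (26), ribosomal proteins (19), NF-kB (19), interferon (25), early B (18), receptor signalling of B cells (20), plasma cell (10), transcription factors of the B lineage (21), MHC class I (9), Polycomb and H3K27 demethylase genes (14), T and NK cells (18), erythroid cells (7), B-cell identity (9) and housekeeping (10). Kdm6b, a histone H3 lysine 27 demethylase, changed by -0.21 (adjusted p = 0.241), its opposing methyltransferase Ezh2 by -0.10 and Tcf3, which encodes the B-lineage factor E2A, by -0.17 (adjusted p = 0.345). Igll1, part of the surrogate light chain of pre-B cells, changed by 0.79 (adjusted p = 0.241), led by R4000, where it went from 9.80 to 11.46 against 11.03 in untreated R100.

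**Figure D4:**
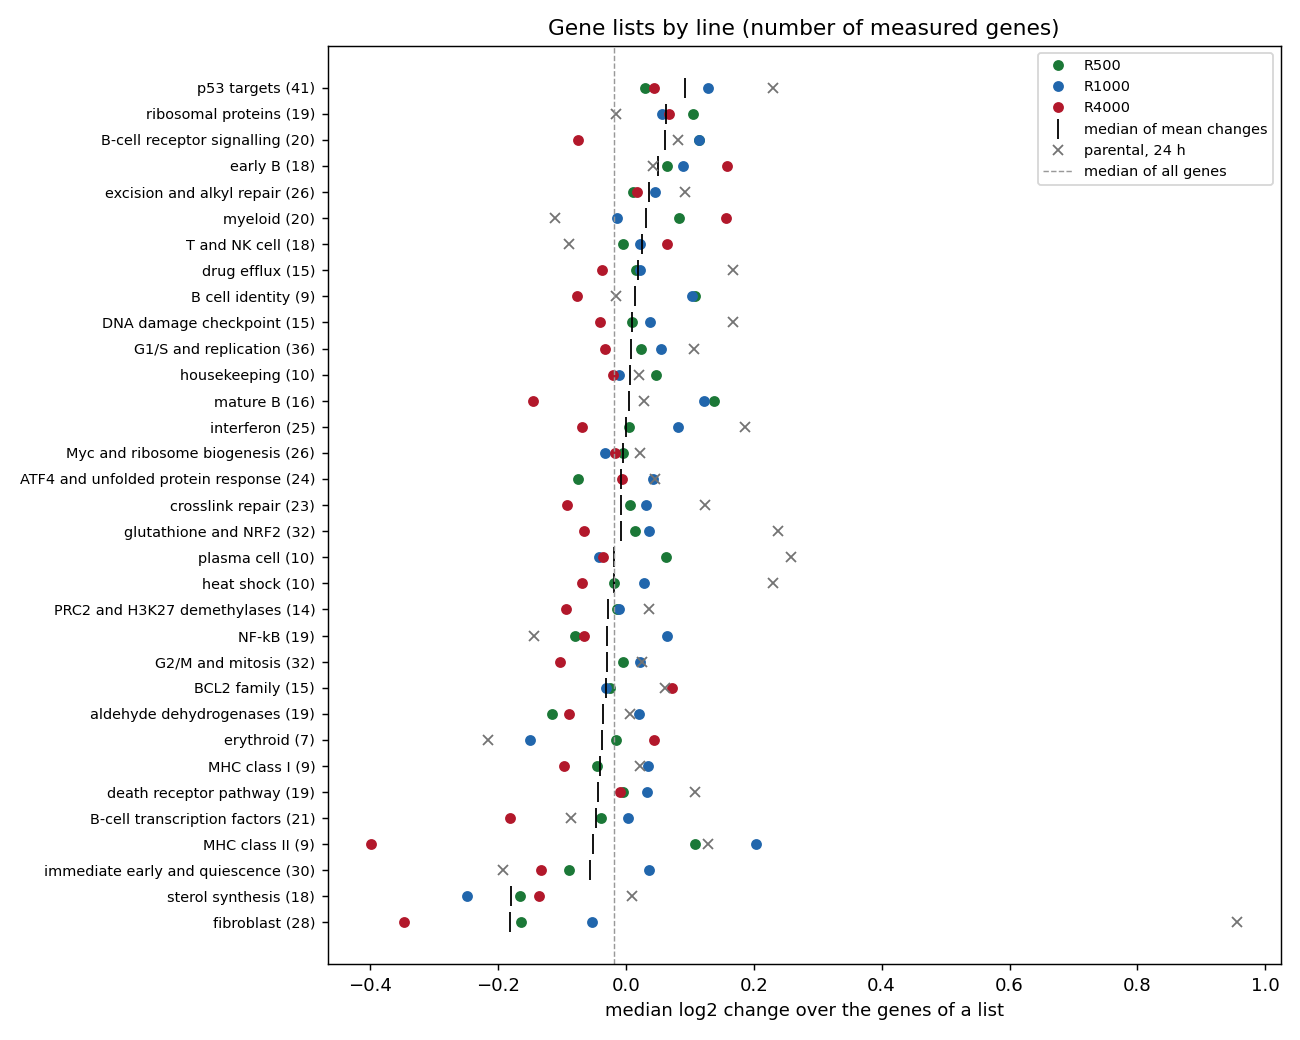
Median change in RMA intensity (log2, treated minus untreated) of each of 33 gene lists. Points are the lines R500, R1000 and R4000, black bars the median of the mean changes, crosses the parental 24 h change and the dashed line the median of all genes. Sterol synthesis and fibroblast genes lie below the dashed line at -0.18, the p53 targets lie above it at 0.09, and the parental cross of the fibroblast list lies at 0.96.

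The parental cells answer whether the same genes responded before selection. In a limma fit over 16 arrays, 363 genes were higher (1.82%) and 79 lower (0.396%) in parental cells after 24 h. Of the 58 resistant rises, 54 lay above 0 in parental cells, where 42.9% of all genes did, and 22 passed there. Of the 18 falls, 10 lay below 0 in parental cells (55.6%), where 57.1% of all genes did, and 1, Begain, passed there. The median change of the rises was 0.73 in resistant and 0.53 in parental cells, and that of the falls was -0.60 and -0.04. The resistant values chose these genes, so the medians are a description.

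The difference in response itself passed for 0 genes after adjustment (smallest adjusted p = 0.24), with 550 genes above parental (2.76%) and 1012 below (5.08%) at an unadjusted p under 0.05. With the replicate number of the parental titles as a block, 8 genes passed, all with a lower change in the resistant lines, among them Car13 (-1.40, adjusted p = 0.00722), Serpinb9 (-1.28, adjusted p = 0.0182), a granzyme B inhibitor, and Nqo1 (-2.21, adjusted p = 0.0438). The rest were Ahnak, Dag1, Klhl22, Lgr4 and Utrn. Leaving out the third parental 24 h array gave 128 genes, 6 above and 122 below. Those below included matrix and contractile genes such as Acta2, Tagln, Sparc and Thbs1, beside Nqo1, Mlkl and Serpinb9. The part of fibroblasts in these counts was not tested. Among the 76 called genes, 26 had an unadjusted p of the difference under 0.05. These were 12 rises that were larger and 5 that were smaller than in parental cells, and 9 falls that were lower than the parental change. The resistant values that chose the 76 genes also enter this difference. That choice favours larger rises and lower falls, so these counts are a description.

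All 4 p53 targets that rose had a larger change in parental cells. The resistant and parental changes were 1.46 and 1.98 for Zmat3, 0.48 and 0.92 for Ccng1, 0.59 and 1.41 for Psrc1 and 0.64 and 1.48 for Phlda3. The limma differences had unadjusted p = 0.016, 0.00267, 0.000839 and 0.0235, and none passed over all genes. Cd80 went the same way, at 1.17 against 2.50 (unadjusted p = 0.000796), and Mdm2 differed in sign, at -0.33 against 0.44 (unadjusted p = 0.0067). The list median was 0.09 in resistant and 0.23 in parental cells. NRF2 targets stood further apart, with Nqo1 at -0.36 against 1.84 (unadjusted p = 1.6e-05) and Hmox1 at 0.16 against 1.88 (unadjusted p = 0.0033). Bex6 read 9.37, 9.47 and 9.20 before and 9.22, 10.13 and 9.42 after in the resistant lines, a change of 0.24 against 1.91 (unadjusted p = 0.00045).

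Other changes were larger in the resistant lines or went the opposite way. Rnase12 changed by 1.65 against 0.60 (unadjusted p = 0.00303), Fcgr4 by 1.12 against 0.47 (unadjusted p = 0.00279) and Gimap4 by 0.99 against -0.02 (unadjusted p = 0.000214). Fos changed by -1.02 against -0.29 (unadjusted p = 0.00168), whereas Fosb was nearly equal at -1.22 and -1.16. H2-Eb2 changed by 0.65 against -0.45 (unadjusted p = 0.00191). Opposite signs were also found for Ccn2 (-0.92 and 1.03), Car13 (-0.94 and 0.47), Fads2 (-0.57 and 1.32) and Met (-0.53 and 0.91). The parental change did not pass for Ccn2, Car13, Fads2, Met or H2-Eb2 (limma adjusted p = 0.1165, 0.269, 0.0622, 0.077 and 0.156). In the fit over all 16 arrays without the parental block, none of these differences passed after adjustment. The resistant values also chose these genes. The fibroblast mean moved oppositely as well, from 8.42 ± 0.24 to 9.35 ± 0.61 in parental cells (SD, n = 5 each) and from 8.58 ± 0.10 to 8.27 ± 0.17 in the resistant lines (SD, n = 3 each). Its part in these differences was not tested.

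**Figure D5:**
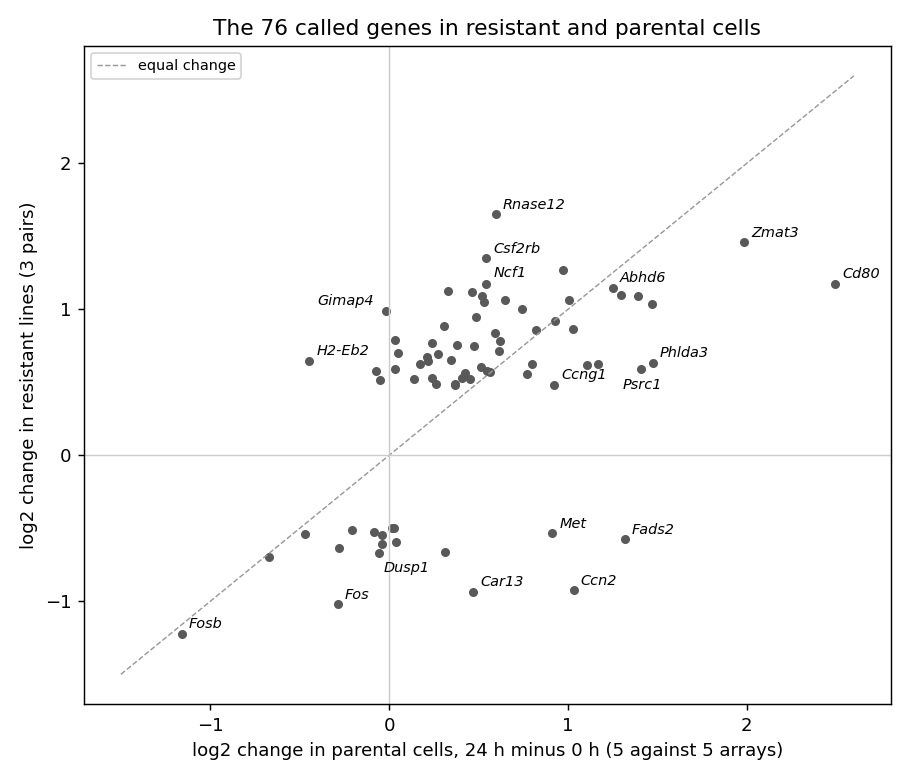
Mean change in the 3 resistant lines against the mean 24 h change in parental cells (both log2) for the 76 genes that passed in the resistant lines. Zmat3, Cd80, Psrc1 and Phlda3 lie on the parental side of the line of equal change, Rnase12 and Csf2rb on the resistant side, and Ccn2, Car13, Fads2 and Met fell in the resistant lines with parental values above 0.

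The lines differed in how much they changed. At least 2-fold changes numbered 21 higher and 4 lower in R500, 24 and 5 in R1000 and 43 and 90 in R4000. Of these, 73 were found in R4000 with both other lines under 1.5-fold (18 higher and 55 lower), against 3 in R1000 and 0 in R500. Across all genes the changes correlated at 0.321 between R500 and R1000, 0.37 between R500 and R4000 and 0.186 between R1000 and R4000, each a description across genes measured on the same arrays. The falls found in R4000 alone included the fibroblast genes Fn1 and Thbs1, which went from 10.71 to 9.46 and from 10.37 to 8.98. Untreated R100 read 10.495 and 10.475 for them, near untreated R4000. Ly6d and Cask were also among these R4000 genes. Ly6d, a surface marker of early B-lineage cells, read 9.49, 9.32 and 10.82 before and 9.45, 9.71 and 9.22 after, against 8.22 in untreated R100. Cask, a scaffold gene, read 8.22, 8.13 and 8.49 before and 8.13, 7.65 and 6.49 after, against 7.20 in R100. With R100 added to the untreated group and no block, 54 genes were higher and 20 lower past the threshold, 37 of them among the 76. Zmat3 (adjusted p = 0.003), Ncf1, Fcgr4, Tyrobp, Fosb and Dusp1 were among these, and Psrc1, Phlda3, Fos and Car13 were not.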

How the data were processed

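Gene expression was measured on Affymetrix Mouse Gene ST 1.0 arrays, 1 per sample. The authors processed the 30 arrays by robust multi-array averaging (RMA, affy package) and deposited log2 intensities per probe set, and mm9 is the build in the submitters' processing notes. Of 34760 probe sets, 21640 carry 1 gene symbol in the platform annotation, 1321 carry several and 11799 are not listed there. The brightest probe set was kept for each of 954 genes with several, which left 19937 genes.

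Changes were tested with limma 3.58.1 in R 4.3.3 on the log2 values, with terms for line and treatment over the 6 arrays (2 residual and 5.1 prior degrees of freedom), with Benjamini-Hochberg adjustment over all genes. The difference from parental cells was a contrast over 16 arrays (10 residual degrees of freedom), and the other 14 arrays entered neither of these fits. The block is the cell line given by the labels. Deviations of same-line arrays correlated at 0.269 (R500), -0.01 (R1000) and 0.001 (R4000), and those of parental arrays with the same title number at 0.131 to 0.342. The scripts were tested on simulated data. The number of arrays limits the precision, and the p-values measure the spread between steps of 1 escalation.

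The arrays, gene lists and settings were chosen with earlier results of these data known. Genes were named as the 15 largest rises and falls that passed and moved alike in all lines, up to 4 list members with the smallest p, 28 fixed names (27 measured; Bax is not under a single symbol), the genes that passed in the difference fit, and the 5 genes in each direction where R4000 moved furthest beyond the others. Promoter windows are RefSeq on GRCm38.p6, matched by symbol for 59 of the 76 called genes, and no array coordinates were converted. Motifs were searched on both strands, with TGACG as the cAMP response half-site (inside the full TGACGTCA), GAGGAAGT as the PU.1 motif, CCAAT as the box of that name, TCACNCCAC as the sterol regulatory element and TGANTCA as the AP-1 site, besides the p53 half-site and the CArG box. Alternatives were another centring, dim genes left out, probe sets averaged or all kept, a trended or robust prior, the pooled spread, a fibroblast covariate, no block and each replicate left out.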

Additional observations from a re-analysis of the deposited data

Results flagged for a closer look

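The means of the 33 gene lists and the 76 called genes were searched for opposite movement. In 7 every resistant line moved one way and every parental 24 h array, set against the parental 0 h mean, moved the other. The called genes had all moved the same way in the resistant lines already. The share of all genes with this pattern was not counted. The mean of the 32 glutathione and NRF2 genes changed by -0.211 to -0.018 in the lines and by 0.266 to 0.589 in parental arrays, a difference of -0.486. The fibroblast mean changed by -0.588 to -0.112 against 0.065 to 1.7, a difference of -1.233. The mean of the T and NK cell genes changed by 0.041 to 0.071 against -0.163 to -0.075, a difference of 0.168, with its genes dim in all arrays (means of 6.50 to 6.58 in the resistant lines). These 3 differences of list means were not tested.

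Among named genes, Car13 differed by -1.404 (lines -1.089 to -0.811, parental 0.029 to 1.238), Cd99l2 by -0.973 (lines -0.853 to -0.442, parental 0.093 to 0.672) and Fads2 by -1.892 (lines -0.606 to -0.52, parental 0.262 to 2.408). H2-Eb2 differed by 1.094, with the lines at 0.631 to 0.664 and parental arrays at -0.822 to -0.015. The limma test of the difference gave unadjusted p = 0.00551, 0.000202, 0.00441 and 0.00191 for these genes, and none passed over all genes without the parental block.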

How the results depend on the processing

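Of the 76 calls (58 higher, 18 lower), median centring gave 97 with all 76 shared, housekeeping centring 69 with 67 shared, averaged probe sets 93 and a robust prior 69. The count moved by over 1.5 times to 201 with dim genes left out (65 shared), 452 with a trended prior (76 shared), 6 with the spread of the 16-array fit, 45 with the fibroblast covariate and 0 with all 34760 probe sets tested, where the smallest adjusted p was 0.258 and 3424 probe sets had an unadjusted p under 0.05. Without the replicate block of cell line, 52 genes passed, 35 of them shared. Leaving out a line gave 0 (R500) to 598 (R1000), and 28 without R4000 (19 shared). In settings chosen after seeing the data, R500 and R1000 alone without a block gave 11 (7 shared) and R100 added gave 74. The cause of these shifts was not tested, beyond the fewer samples or genes that the settings themselves make.

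Genes past 1.5-fold in every line, 41, became 6 at 2-fold and 60 to 109 with a line left out (60 without R500, 109 without R1000 and 70 without R4000). The difference from parental cells gave 0 under every planned setting that kept all arrays except the parental number as a replicate block, which gave 8. Leaving out an array gave 0 to 128, with 128 without parental 24 h replicate 3, 3 without 0 h replicate 4 and 1 without 24 h replicate 1. With the fibroblast covariate Srsy turned to -3.738, Ms4a1 to 1.616 and Ly6d to 0.88, all 3 genes of the R4000 pair. Most list medians moved little, but the myeloid median was 0.70 with dim genes left out and -0.002 under housekeeping centring. Each condition has 3 arrays, and intensities near the array floor, as for Lyz2 and S100a8, can hide small changes.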

Other observations

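Untreated R100, an array in no comparison by its label, read 10.44 for Rnase12, where the untreated lines of the later steps read 8.30 to 9.72. Srsy, a Y-linked gene, read 10.39, 10.43 and 5.89 in untreated R500, R1000 and R4000 and 11.02, 7.34 and 10.12 after treatment, so R4000 was the lowest of the untreated arrays and R1000 the lowest of the treated ones.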
